A study of Mus musculus with 9 samples.

Results

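A group of 8 mouse genes for immune receptors and lysozymes was followed across 9 arrays of transduced bone marrow cells. They are the Fc gamma receptor genes Fcgr1, Fcgr2b, Fcgr3 and Fcgr4, the inhibitory receptor gene Sirpa, the lysozyme genes Lyz1 and Lyz2, and the costimulatory gene Cd86. They were chosen by symbol, with earlier results of these data known. Each of the 8 had 1 transcript cluster of its own, that is, 1 set of probes summed per gene. The array held 18797 symbols and 21072 clusters. All 8 were tested, since no filter on low signals was used. The groups were 3 arrays of cells transduced with a retrovirus carrying the GATA2 variant R396Q together with EGFP, 3 with GATA2 wild type and EGFP, and 3 with the empty EGFP vector (MIE). GATA2 binds DNA through zinc fingers and is needed by blood stem cells, and EGFP is a green fluorescent protein by which transduced cells were sorted. In all 3 groups the donors were C57BL/6 females aged 8 weeks, given 5-fluorouracil at 150 mg/kg 6 days before marrow was taken. Marrow cells selected as Lin-Sca+Kit+ were infected on consecutive days, and green cells were sorted after 72 h of culture. GATA2 thus came from a retrovirus on top of the cells' own Gata2, and the labels do not give the species of the GATA2 sequence. The labels do not tie the arrays to separate mice or cultures, so p-values measure only the spread between these samples, which may be technical.

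Fc gamma receptors bind the constant part of IgG antibodies on coated particles. Fcgr1, Fcgr3 and Fcgr4 code for activating receptors, which signal through the shared chain encoded by Fcer1g, whereas Fcgr2b codes for the inhibitory receptor of the family. Sirpa binds CD47, a "do not eat me" signal on the target cell, and recruits the phosphatases encoded by Ptpn6 and Ptpn11 to restrain phagocytosis. Lysozymes cut the cell wall of bacteria, and in the mouse Lyz2 is the gene of myeloid cells while Lyz1 is best known from Paneth cells of the gut. Cd86 is a ligand of CD28 on T cells and is displayed by cells that present antigen.

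The signal of Gata2, the transduced gene, followed the labels. It was 10.65, 10.72 and 10.53 on the R396Q arrays and 11.50, 11.24 and 10.94 with wild type, against 9.87, 9.67 and 9.65 with empty vector, all as log2 RMA signal. Both GATA2 groups lay above every empty vector array. Gata2 was 1.87-fold higher with R396Q than with empty vector (limma adjusted p = 0.0394) and 2.81-fold higher with wild type (limma adjusted p = 0.0016). The first of these calls failed when wild type 2 or any single array of the R396Q or empty vector groups was dropped (limma adjusted p of 0.0266 to 0.155 over the 9 left-out arrays). Relative to wild type the R396Q signal was 1.51-fold lower (limma adjusted p = 0.0633). With the replicate number as a block that adjusted p was 0.0222, and without wild type 3 it was 0.0235. It was also under 0.05 in 6 other settings, and over 19 alternative settings it was 0.0222 to 0.177. The R396Q and wild type arrays did not overlap in Gata2 signal. The part of this lower level in the differences between R396Q and wild type below was not tested. Of 6 measured stem and progenitor markers, 4 fell with wild type against empty vector, 1 rose (Cd48) and 1 fell (Kit) with R396Q against empty vector, and 3 were higher with R396Q than with wild type. Kit read 10.32 to 10.58 with R396Q, 9.42 to 9.50 with wild type and 12.22 to 12.38 with empty vector, and Cd34 read 12.77 to 12.83, 8.41 to 8.69 and 12.94 to 13.46 in the same groups. Cd48 read 15.58 to 16.08 with R396Q, 13.08 to 13.15 with wild type and 13.92 to 14.67 with empty vector. The labels call the cells HSC and the tissue blood, and markers of some blood lineages were also read at high levels in some groups. Array medians were 6.06 to 6.19. The mean log2 signal of 10 neutrophil markers was 9.97 to 13.63 with R396Q, 6.94 to 9.96 with wild type and 11.45 to 14.67 with empty vector. The mean log2 signal of 5 erythroid markers was 5.46 to 5.95 with R396Q, 9.55 to 10.72 with wild type and 5.41 to 6.06 with empty vector, and that of 4 megakaryocyte markers was 8.64 to 9.31, 11.44 to 11.72 and 8.25 to 9.07 in the same groups. All 5 and all 4 rose with wild type against empty vector and were lower with R396Q than with wild type (limma), and their part in the results below was not tested. The arrays measure sorted cells in bulk, so fewer cells of a type and less RNA per cell cannot be told apart in any result below.

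The 8 genes did not move as a block. Sirpa and Cd86 fell with both forms of GATA2, Lyz1 and Lyz2 fell with wild type alone among the comparisons with empty vector, and Fcgr2b was the 1 Fc gamma receptor past the test, higher with R396Q than with wild type. In the comparison of wild type with empty vector, 4 of the 8 were lower and 0 higher (limma, adjusted p under 0.05), where 8.99% of all clusters were called with 4.64% higher and 4.35% lower. In that of R396Q with empty vector 2 were lower and 0 higher, where 1.23% of all clusters were called with 0.66% higher and 0.569% lower. In that of R396Q with wild type 4 were higher and 0 lower, where 5.75% of all clusters were called with 2.67% higher and 3.08% lower. The median log2 difference of the 8 genes was -2.28, -0.31 and 1.31 in these comparisons, beside -0.01, -0.01 and 0.00 over all clusters. The comparisons share groups of arrays, so their results are not independent of each other. The 8 genes were chosen with earlier results of these data known. Their counts and medians beside all clusters are thus description and no test of the set. With the replicate number as a block the counts were 5, 1 and 5, beside 17.4%, 3.0% and 13.1% of all clusters. The groups did not overlap for 5 of the 8 genes in each comparison, where 22.6%, 14.1% and 20.6% of all clusters showed this. For R396Q against empty vector the 5 include Fcgr3, whose nearest values in the 2 groups were both 12.77.

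**Figure D1:**
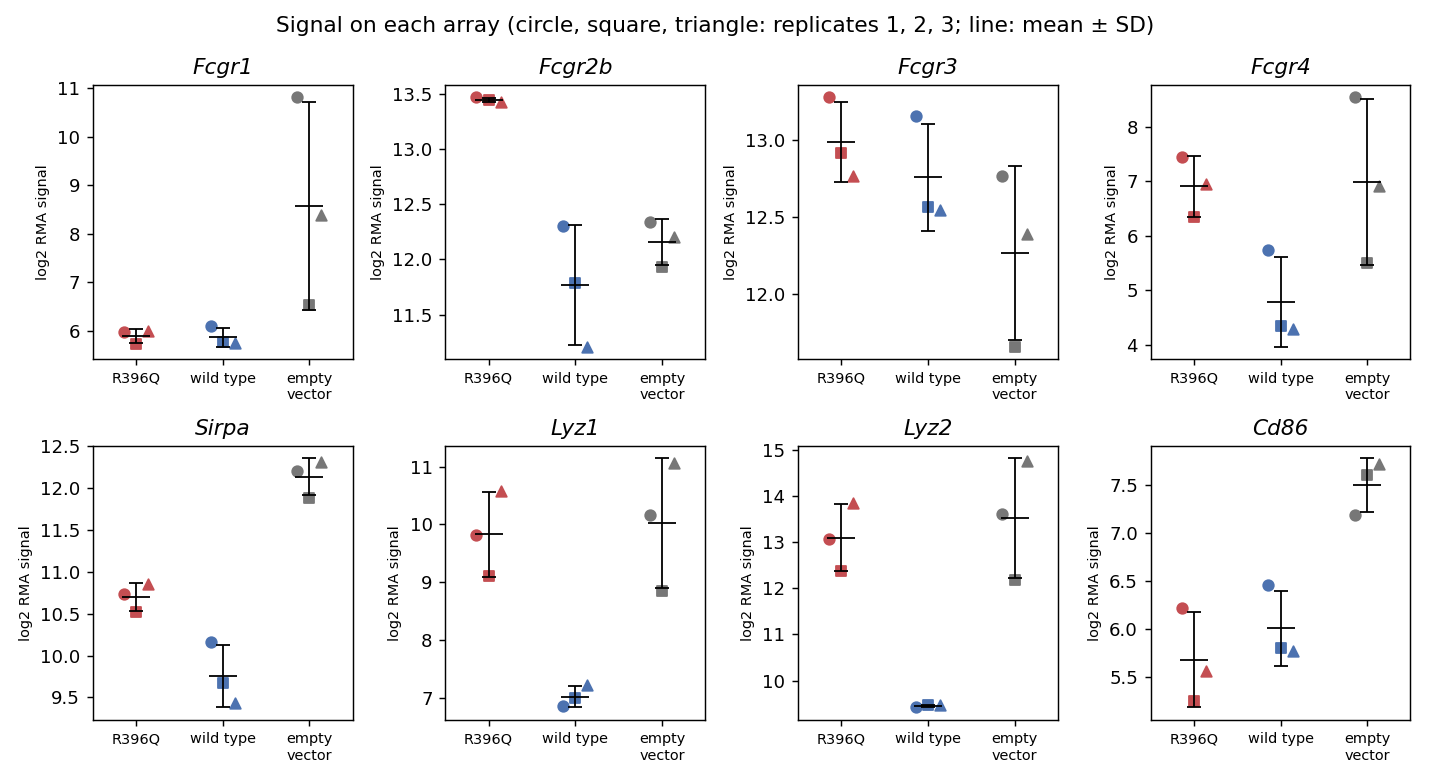
Log2 RMA signal (y axis) of each of the 8 genes on the 9 arrays, with R396Q left of wild type and wild type left of empty vector. Circles, squares and triangles are replicates 1, 2 and 3, and the lines are the mean and SD of 3 arrays. Fcgr2b lies at 13.43 to 13.47 on the R396Q arrays and at 12.34 or below on all others, whereas both lysozymes are lowest on the 3 wild type arrays.

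**Figure D2:**
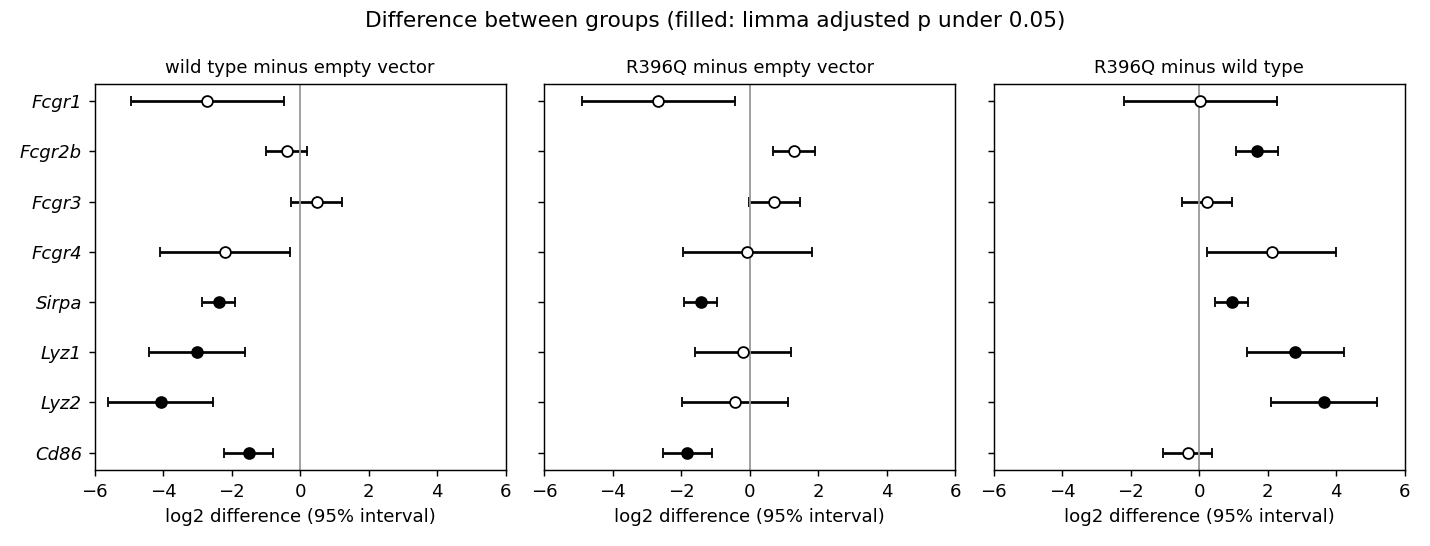
Log2 difference between groups (x axis) with its 95% confidence interval from limma for each gene, as wild type minus empty vector, R396Q minus empty vector and R396Q minus wild type. Filled points passed the test (adjusted p under 0.05), and they number 4, 2 and 4.

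Fcgr2b, the inhibitory receptor, had log2 signals of 13.47, 13.45 and 13.43 on the R396Q arrays, 12.30, 11.79 and 11.21 on the wild type arrays and 12.34, 11.93 and 12.20 on the empty vector arrays. The R396Q arrays stood above all others and differed among themselves far less than the wild type arrays (SD 0.02 with R396Q, 0.55 with wild type and 0.21 with empty vector, n = 3 each). It was 3.21-fold higher with R396Q than with wild type (1.68 on the log2 scale, SE 0.26, limma adjusted p = 0.0129), by 1.16, 1.65 and 2.22 within replicate numbers 1, 2 and 3. That call was lost without R396Q 1 or R396Q 2 and on the 2 groups alone (limma adjusted p 0.0583 there and 0.0041 to 0.0583 over 19 settings). Against empty vector the difference with R396Q was 1.29 (SE 0.26, 95% confidence interval 0.68 to 1.90) and did not pass the test (limma adjusted p = 0.0787). It passed in 6 of 19 settings, which were those without wild type 1 or wild type 3, on the 2 groups alone, with median subtraction, without the dimmest 50% of clusters and with at least 6 distinct values per cluster (limma adjusted p 0.0353 to 0.24 over the 19). It had the same direction in all 19. With wild type Fcgr2b differed from empty vector by -0.39 (95% confidence interval -1.0 to 0.22, limma adjusted p = 0.437), and those groups overlapped. B cells carry Fcgr2b as their 1 Fc gamma receptor, and the mean log2 signal of 6 B cell markers was 5.83 to 7.27 with R396Q, 5.61 to 6.49 with wild type and 5.91 to 6.70 with empty vector. Of these 6 markers 0 passed the test in each of the 3 comparisons (limma, 1 higher with R396Q than with wild type with the replicate block).

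Fcgr3, an activating receptor of mast cells, natural killer cells and phagocytes, read 13.28, 12.92 and 12.77 on the R396Q arrays, 13.16, 12.57 and 12.55 on the wild type arrays and 12.77, 11.66 and 12.39 on the empty vector arrays. Replicate 1 was the highest in every group. The R396Q arrays reached down to the highest empty vector array without crossing it, and the wild type arrays overlapped both other groups. No difference passed the test, with 0.72 for R396Q minus empty vector (95% confidence interval -0.02 to 1.46, limma adjusted p = 0.433), 0.49 for wild type minus empty vector (-0.25 to 1.23, limma adjusted p = 0.425) and 0.23 for R396Q minus wild type (-0.51 to 0.97, limma adjusted p = 0.81). The mean log2 signal of 7 mast cell and basophil markers was 11.17 to 11.83 with R396Q and 12.40 to 13.94 with wild type. It was 9.68 to 11.23 with empty vector. Of these 7, 5 rose with wild type and 0 passed with R396Q against empty vector (5 and 1 rose with the replicate block). With R396Q 3 were lower than with wild type (limma, also 3 with the block). The mean log2 signal of 6 natural killer cell markers was 4.67 to 4.94 with R396Q. It was 4.68 to 4.87 with wild type and 4.62 to 4.87 with empty vector. On each array 3 to 4 of the 6 lay below the lower quartile. The part of both lists in the Fcgr3 and Fcgr2b signals was not tested.

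Fcgr2b and Fcgr3 are close relatives that pull in opposite directions, so their difference within each array was also taken, a measure chosen after the values were seen. Fcgr2b minus Fcgr3 was 0.19, 0.53 and 0.66 on the R396Q arrays, -0.86, -0.78 and -1.34 on the wild type arrays and -0.43, 0.28 and -0.19 on the empty vector arrays. R396Q lay above wild type without overlap, and wild type lay below empty vector without overlap, whereas R396Q and empty vector overlapped. The shift between R396Q and wild type was 1.45 and that between wild type and empty vector -0.88, each with an exact two-sided permutation p of 0.1, the smallest that 3 against 3 arrays allow. Between R396Q and empty vector it was 0.57 (exact two-sided permutation p = 0.2). This test does not use the replicate numbers, within which R396Q minus empty vector was 0.62, 0.25 and 0.85, higher with R396Q in 3 of 3. These numbers describe unequal shifts of the 2 cluster signals on these arrays and not the relative abundance of the genes, because the probes of the 2 clusters differ. Probe sequences were not used here, so signal shared between these similar genes could not be told apart.

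**Figure D3:**
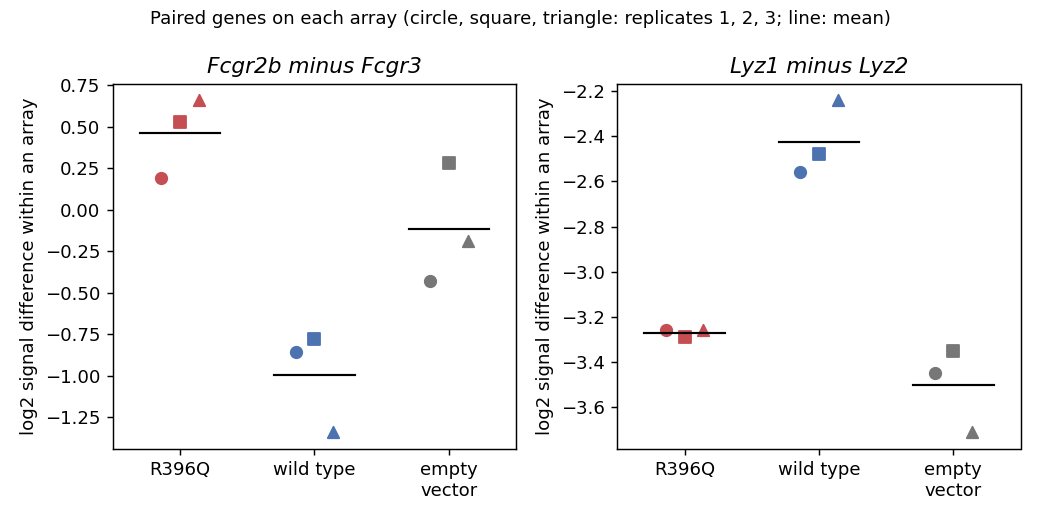
Difference in log2 signal within each array (y axis) for Fcgr2b minus Fcgr3 and for Lyz1 minus Lyz2, with R396Q left of wild type and wild type left of empty vector. Symbols are replicates 1, 2 and 3 and lines are means. Fcgr2b minus Fcgr3 is above 0 on the 3 R396Q arrays and below 0 on the 3 wild type arrays, and Lyz1 minus Lyz2 is highest with wild type.

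Fcgr1 codes for the high affinity IgG receptor of monocytes and macrophages. Its signal was 5.98, 5.73 and 5.99 on the R396Q arrays and 6.09, 5.77 and 5.74 with wild type, against 10.81, 6.53 and 8.38 on the empty vector arrays. The 6 arrays with GATA2 lay at 5.73 to 6.09, below every empty vector array, while the empty vector arrays differed widely among themselves (SD 2.15). The differences from empty vector were -2.67 with R396Q (95% confidence interval -4.91 to -0.43, limma adjusted p = 0.318) and -2.70 with wild type (-4.94 to -0.46, limma adjusted p = 0.149), so neither passed the test. Within replicate numbers 1, 2 and 3 they were -4.82, -0.79 and -2.39 with R396Q and -4.72, -0.76 and -2.64 with wild type. Empty vector 1 and 2 decided much of their size. Without empty vector 1 the difference of Fcgr1 was -1.55 with R396Q and -1.59 with wild type. Without empty vector 2 it was -3.69 with R396Q and -3.72 with wild type, and the second of these passed (limma adjusted p = 0.0262, and 0.0262 to 0.3 over 19 settings). R396Q and wild type differed by 0.04 (95% confidence interval -2.20 to 2.27). The fit shares 1 estimate of the spread over the 3 groups, the empty vector arrays included.

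Fcgr4, an activating receptor of monocytes, macrophages and neutrophils, read 7.45, 6.34 and 6.95 on the R396Q arrays, 5.75, 4.35 and 4.29 on the wild type arrays and 8.54, 5.50 and 6.92 on the empty vector arrays. The wild type arrays were the lowest within each replicate number, and wild type 1 lay above empty vector 2. On wild type 2 and 3 the signal was below the lower quartile of the array (4.57 on both), too dim to be told from background, so folds against wild type are uncertain. No other value among the 72 of the 8 genes was that low. R396Q minus wild type was 2.12 (SE 0.80, limma adjusted p = 0.223) and wild type minus empty vector -2.19 (SE 0.80, limma adjusted p = 0.164), neither past the test. With the replicate number as a block both passed, at limma adjusted p = 0.0355 (0.0355 to 0.462 over 19 settings) and 0.0258 (0.0258 to 0.345). R396Q minus empty vector was -0.07 (95% confidence interval -1.96 to 1.81), and it was -1.09, 0.84 and 0.03 within replicate numbers 1, 2 and 3.

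The genes of the inhibitory and activating receptors stand side by side on mouse chromosome 1 (Fcgr2b, Fcgr4 and Fcgr3), with Fcgr1 on chromosome 3. Their promoters are shown because the 4 genes had such different patterns. Each line gives the 160 bases before the RefSeq start of the gene (build GRCm38.p6), read 5′ to 3′ on the gene's own strand. Capitals mark matches to GAGGAA or its reverse complement TTCCTC, a longer spelling of GGAA, the core of sites for ETS factors such as PU.1.
Fcgr2b, chr1:170976072-170976231, minus strand: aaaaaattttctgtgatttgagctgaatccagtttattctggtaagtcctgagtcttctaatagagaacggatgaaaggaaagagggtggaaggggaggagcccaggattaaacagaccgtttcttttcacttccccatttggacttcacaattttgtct
Fcgr3, chr1:171059404-171059563, minus strand: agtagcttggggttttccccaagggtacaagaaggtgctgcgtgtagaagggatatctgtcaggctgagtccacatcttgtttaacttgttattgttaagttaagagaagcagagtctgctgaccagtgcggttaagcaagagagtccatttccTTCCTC
Fcgr4, chr1:171018766-171018925, plus strand: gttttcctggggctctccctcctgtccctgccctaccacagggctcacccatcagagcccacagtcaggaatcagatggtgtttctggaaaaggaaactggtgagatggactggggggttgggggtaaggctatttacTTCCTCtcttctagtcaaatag
Fcgr1, chr3:96293970-96294129, minus strand: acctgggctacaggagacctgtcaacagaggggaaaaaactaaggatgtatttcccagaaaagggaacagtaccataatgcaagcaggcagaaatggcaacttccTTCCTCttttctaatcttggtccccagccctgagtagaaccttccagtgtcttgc

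The shorter core GGAA, or TTCC on the other strand, was not counted, and it also occurs in the Fcgr2b line. The match to the longer spelling stands in the promoters of the 3 activating receptor genes and not in that of Fcgr2b. Counting the base before the start as -1, its first base lay at -55 in Fcgr1, at -22 in Fcgr4 and at -6 in Fcgr3, or -15 from a second listed start of Fcgr3. In windows of 300 bases (250 before and 50 after the start), 28.3% of 32851 RefSeq promoters held this motif on either strand. The GATA motif (AGATAA or TGATAA, or their reverse complements TTATCT and TTATCA), which does not overlap the ETS core in its letters, was not found in these 4 windows, and 18.6% of all promoters held it. A match to letters is a description and does not show a site in use. Sequences for 6 of the 8 genes were matched by symbol, and those of Sirpa and Cd86 are not shown.

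The related lists, like the members, were chosen with earlier results of these data known. Their counts are to be read beside the share of all clusters called. It was 8.99% for wild type against empty vector, 1.23% for R396Q against empty vector and 5.75% for R396Q against wild type. With the replicate block these shares were 17.4%, 3.0% and 13.1%. Among 13 other Fc receptor genes, 2 rose and 1 fell with wild type against empty vector, 0 of 13 passed with R396Q against empty vector, and 0 rose and 2 fell with R396Q against wild type. With the replicate block 1 of 13 fell with R396Q against empty vector, and 1 rose and 2 fell with R396Q against wild type. Fcer1a, the alpha chain of the IgE receptor, is also 1 of the mast cell and basophil markers above. It averaged 8.80 with R396Q, 13.14 with wild type and 8.76 with empty vector. Fcer1a was 20.8-fold higher with wild type than with empty vector (limma adjusted p = 0.00953). It was 20.3-fold lower with R396Q in comparison with wild type (limma adjusted p = 0.0132). Ms4a2, the beta chain of the IgE receptor, was 7.81-fold higher with wild type than with empty vector (limma adjusted p = 0.00303). It was 5.43-fold lower with R396Q relative to wild type (limma adjusted p = 0.00849). Fcrl1, an Fc receptor homolog of B cells, fell 1.83-fold with wild type (limma adjusted p = 0.0036). It averaged 5.11 with wild type and 5.98 with empty vector, below the array medians of 6.06 to 6.19. Fcer1g, the chain that Fcgr1, Fcgr3, Fcgr4 and the IgE receptor share, read 12.10, 12.23 and 12.29 with R396Q, 12.51, 12.11 and 12.01 with wild type and 12.11, 11.65 and 11.98 with empty vector. Its differences from empty vector were 0.30 in both GATA2 groups (SE 0.16 each) and did not pass the test (limma adjusted p = 0.538 with R396Q and 0.353 with wild type).

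Of 22 measured genes that signal downstream of Fc receptors, 9 fell and 2 rose with wild type against empty vector, 0 passed with R396Q against empty vector (1 fell with the replicate block), and 4 rose and 0 fell with R396Q against wild type (8 rose and 1 fell with the replicate block). The median log2 differences were -0.46, -0.02 and 0.35. Vav3, a signaling protein downstream of immune receptors, read 10.43, 9.89 and 9.95 with R396Q, 7.34, 7.54 and 7.84 with wild type and 9.58, 9.55 and 9.43 with empty vector. The wild type arrays were the lowest without overlap, 3.86-fold below empty vector (limma adjusted p = 0.00136) and 5.73-fold below R396Q (limma adjusted p = 0.000814). Card9, an adaptor that links receptors to NF-kappaB, fell 2.92-fold with wild type (limma adjusted p = 0.00434) and was 2.3-fold higher with R396Q than with wild type (limma adjusted p = 0.015). Ncf4, a subunit of the phagocyte NADPH oxidase, fell 4.07-fold with wild type (limma adjusted p = 0.00331) and was 2.13-fold higher with R396Q than with wild type (limma adjusted p = 0.0437), and Ncf1, another subunit, was 2.5-fold higher in the second of these comparisons (limma adjusted p = 0.0211). Lcp2, the adaptor SLP-76, rose 1.97-fold with wild type (limma adjusted p = 0.00615). With R396Q, Lcp2 differed from empty vector by 0.57 and Plcg2, a phospholipase, by -0.54, neither past the test (limma adjusted p = 0.116 and 0.14).

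Sirpa had log2 signals of 10.73, 10.52 and 10.85 on the R396Q arrays and 10.16, 9.67 and 9.43 with wild type, against 12.20, 11.88 and 12.31 on the empty vector arrays. The 3 groups were apart from each other with no overlap, wild type lowest and R396Q between. It fell 5.19-fold with wild type (-2.38, SE 0.20, limma adjusted p = 0.00112) and 2.70-fold with R396Q (-1.43, SE 0.20, limma adjusted p = 0.0284), and it was 1.92-fold higher with R396Q than with wild type (0.94, SE 0.20, limma adjusted p = 0.0461). Within replicate numbers 1, 2 and 3 the difference of R396Q from empty vector was -1.47, -1.37 and -1.46. That of wild type from empty vector was -2.03, -2.22 and -2.88. The wild type call held without any 1 array (limma adjusted p up to 0.00742). The call for R396Q against empty vector failed when any R396Q array, wild type 2, empty vector 1 or empty vector 3 was dropped (limma adjusted p 0.0215 to 0.116 over the left-out arrays), and that for R396Q against wild type without any 1 array but wild type 1 (0.0208 to 0.142).

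Of 8 measured genes of the Sirp and Cd47 axis, 2 fell and 1 rose with wild type against empty vector. In each of the comparisons of R396Q with empty vector and of R396Q with wild type 0 of 8 passed. With the replicate block 0 passed against empty vector, and 1 rose and 1 fell against wild type (limma). Ptpn6, the phosphatase SHP-1 that Sirpa recruits, read 12.50, 12.19 and 12.70 with R396Q, 12.08, 11.41 and 11.84 with wild type and 13.33, 12.70 and 13.12 with empty vector. It fell 2.42-fold with wild type (limma adjusted p = 0.0191), and its difference of -0.59 with R396Q did not pass (limma adjusted p = 0.388). Skap2, an adaptor that Sirpa engages in macrophages, fell 1.87-fold with wild type (limma adjusted p = 0.0306), and Ptk2b, a kinase of adhesion signaling, rose 1.53-fold (limma adjusted p = 0.026). Cd47, the ligand, averaged 16.13 with R396Q, 15.92 with wild type and 15.89 with empty vector, and its differences from empty vector were 0.24 and 0.03 (SE 0.11 each, limma adjusted p = 0.462 with R396Q and 0.931 with wild type). A cluster that the annotation gives to both Sirpb1a and Sirpb1b, relatives of Sirpa that lack its inhibitory tail, lies outside the lists and was chosen after its values were seen. It read 6.38, 5.77 and 5.58 with R396Q and 5.84, 5.41 and 5.39 with wild type, against 9.28, 7.72 and 8.26 with empty vector. It fell 5.71-fold with R396Q (limma adjusted p = 0.0435) and 7.34-fold with wild type (limma adjusted p = 0.00706), and the GATA2 groups overlapped (0.36, SE 0.41, limma adjusted p = 0.75).

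Other receptors with inhibitory tails did not all follow Sirpa. Of 15 measured, 6 fell and 0 rose with wild type against empty vector (7 and 3 with the replicate block), 1 rose and 1 fell with R396Q against empty vector (1 and 3 with the block), and 2 rose and 1 fell with R396Q against wild type (3 and 2 with the block). Pecam1, an adhesion receptor of blood and endothelial cells, read 11.85, 11.71 and 11.55 with R396Q, 10.30, 10.47 and 9.88 with wild type and 10.45, 10.05 and 10.44 with empty vector. Like Fcgr2b it was highest on the R396Q arrays, 2.62-fold above empty vector (limma adjusted p = 0.0188) and 2.80-fold above wild type (limma adjusted p = 0.00541). Cd33, a sialic acid receptor, read 9.59, 8.93 and 9.19 with R396Q, 6.69, 6.30 and 7.12 with wild type and 8.84, 8.99 and 8.93 with empty vector, and it fell 4.65-fold with wild type (limma adjusted p = 0.00235). It was 5.77-fold higher with R396Q than with wild type (limma adjusted p = 0.0021). Cd300lf fell with both forms, 2.06-fold with R396Q (limma adjusted p = 0.0191) and 2.13-fold with wild type (limma adjusted p = 0.00439). Clec4a2 and Clec12a, lectin receptors of myeloid cells, fell 18-fold and 14-fold with wild type (limma adjusted p = 0.0223 and 0.0259), and Cd200r1 was 2.87-fold lower with R396Q relative to wild type (limma adjusted p = 0.047).

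Lyz2, the myeloid lysozyme, read 13.08, 12.38 and 13.84 on the R396Q arrays, 9.42, 9.47 and 9.47 on the wild type arrays and 13.62, 12.18 and 14.77 on the empty vector arrays. The wild type arrays were far below all others and nearly equal (SD 0.03, n = 3), whereas R396Q and empty vector overlapped and shared 1 order of replicates, with 2 the lowest and 3 the highest. Lyz2 fell 16.8-fold with wild type (-4.07, SE 0.65, limma adjusted p = 0.011), a call that held without any 1 array (limma adjusted p up to 0.0416). It was 12.5-fold higher with R396Q than with wild type (3.65, SE 0.65, limma adjusted p = 0.0229), which was lost without any 1 wild type array or R396Q 1 or 3 (0.0105 to 0.0809 over the left-out arrays). R396Q minus empty vector was -0.43 (95% confidence interval -1.97 to 1.12, limma adjusted p = 0.865).

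Lyz1 read 9.82, 9.10 and 10.57 on the R396Q arrays, 6.86, 6.99 and 7.22 on the wild type arrays and 10.17, 8.84 and 11.07 on the empty vector arrays. As with Lyz2, the wild type arrays stood below all others, and the R396Q and empty vector arrays overlapped in the same order of replicates. It fell 8.02-fold with wild type (-3.00, SE 0.59, limma adjusted p = 0.0247) and was 7.0-fold higher with R396Q than with wild type (2.81, SE 0.59, limma adjusted p = 0.0422). The first call was lost without empty vector 1 or 3, any wild type array or R396Q 1 (limma adjusted p 0.0107 to 0.0803 over the left-out arrays), and the second without any 1 array but empty vector 2 and 3 (0.0203 to 0.128). R396Q minus empty vector was -0.19 (95% confidence interval -1.60 to 1.21, limma adjusted p = 0.954).

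The 2 lysozymes are neighbours on chromosome 10 and their signals moved together, with a Pearson r of 0.995 over the 9 arrays, which fall into 3 groups. Within an array, Lyz1 minus Lyz2 was -3.26, -3.29 and -3.26 with R396Q, -2.56, -2.48 and -2.24 with wild type and -3.45, -3.35 and -3.71 with empty vector. The signed value was highest with wild type, where the Lyz1 signal fell by less than that of Lyz2. Wild type minus empty vector was 1.07, R396Q minus wild type -0.84 and R396Q minus empty vector 0.23, with no overlap between any 2 groups (exact two-sided permutation p = 0.1 for each, the smallest that 3 against 3 arrays allow). Lyz1 and Lyz2 are near-identical copies, and without probe sequences the signal of one cannot be told apart from that of the other. The 160 bases before each start (GRCm38.p6, RefSeq, own strand, 5′ to 3′) are shown because the copies moved together, with a match to the GATA motif in capitals.
Lyz1, chr10:117292869-117293028, minus strand: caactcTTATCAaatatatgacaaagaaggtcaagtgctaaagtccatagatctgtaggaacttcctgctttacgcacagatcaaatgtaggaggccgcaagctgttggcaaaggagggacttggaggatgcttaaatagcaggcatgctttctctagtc
Lyz2, chr10:117282273-117282432, minus strand: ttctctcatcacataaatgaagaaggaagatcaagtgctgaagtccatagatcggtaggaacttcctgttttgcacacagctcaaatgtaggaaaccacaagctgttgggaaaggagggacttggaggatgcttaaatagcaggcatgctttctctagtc

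Compared base by base with no gaps, 129 of these 160 positions were identical (80.6%), and 66 of the last 70 before the start (94.3%). The match TTATCA, the reverse complement of TGATAA, began at -154 in Lyz1, and Lyz2 held none of the 4 spellings of the GATA motif in its 300 bases, where 18.6% of all promoters held at least 1. Neither promoter held GAGGAA or TTCCTC, though both printed lines hold the shorter ETS core GGAA, which was not counted.

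Markers of the cell types that make lysozyme also differed between the groups. The mean log2 signal of 7 measured monocyte and macrophage markers was 8.41 to 8.65 with R396Q, 7.55 to 8.72 with wild type and 9.56 to 10.60 with empty vector, and none of the 7 was below the lower quartile on any array. Of these 7, 3 fell with wild type and 2 with R396Q against empty vector, and 1 fell with R396Q against wild type (4, 3 and 2 with the block). Adgre1 did not follow the mean, at 8.7 to 11.03 with R396Q, 8.53 to 8.75 with wild type and 8.13 to 8.75 with empty vector. Nor did Cx3cr1 fall with wild type. Of the 10 neutrophil markers 5 fell with wild type against empty vector (9 with the replicate block), 1 fell with R396Q against empty vector (2 with the block), and 2 were higher with R396Q than with wild type (8 with the block). The mean of the neutrophil markers was lowest on replicate 3 in every group, at 9.97 with R396Q, 6.94 with wild type and 11.45 with empty vector, though Mmp8 in every group and Csf3r with wild type were lowest on replicate 2, while Lyz2 was highest on replicate 3 with R396Q and with empty vector. Among the monocyte markers of the empty vector arrays replicate 2 was the lowest, at 9.56 against 10.60 and 10.44, as it was for the members other than Cd86. The part of these markers in the lysozyme and Fc receptor signals was not tested.

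**Figure D4:**
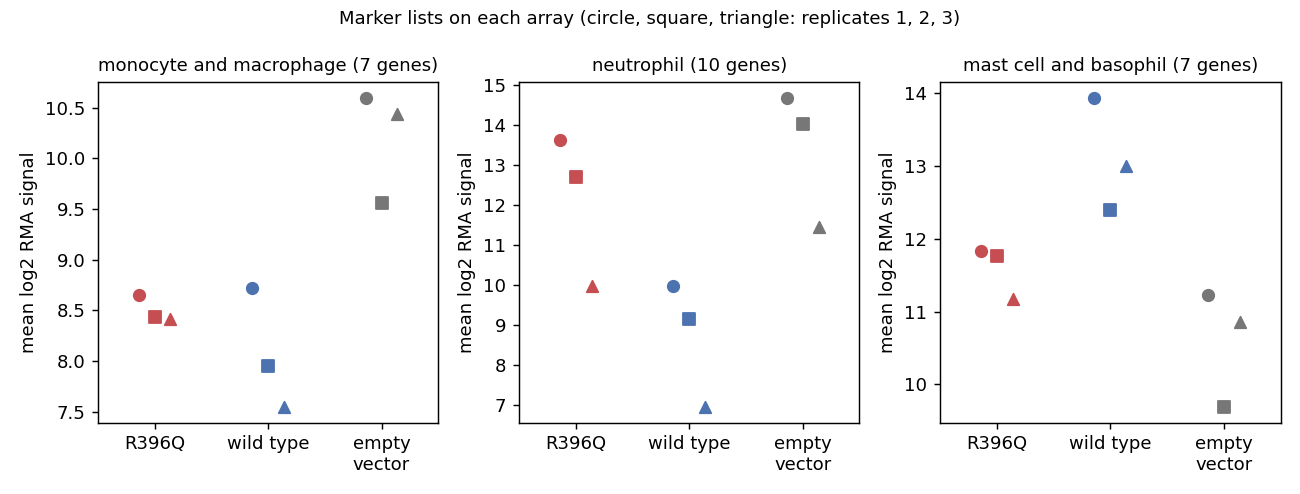
Mean log2 RMA signal (y axis) of the measured markers of 3 cell types on each array, with R396Q left of wild type and wild type left of empty vector, and symbols for replicates 1, 2 and 3. The mean of the monocyte and macrophage markers is at 8.72 or below on the 6 arrays with GATA2 and at 9.56 or above with empty vector. The mean of the mast cell and basophil markers is highest with wild type. Single markers can differ from the mean, as Adgre1 reached 11.03 with R396Q and Cpa3 was highest on an R396Q array (17.14).

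Other lysozyme-like genes were at or near the dim end of the arrays, with group means of 3.84 to 4.81 and 52 of 72 array values below the lower quartile, so a change in them could hardly be seen. Of these 8 genes, 0 passed the test in each of the 3 comparisons (limma, also 0 with the replicate block), and their median differences were -0.02 with wild type and -0.08 with R396Q against empty vector, and -0.04 with R396Q against wild type. Spaca3, a lysozyme-like protein of sperm, had the smallest p with wild type, at a difference of -0.20 (limma adjusted p = 0.277). Of 18 lysosome genes, 4 fell and 1 rose with wild type against empty vector (10 and 1 with the replicate block), 1 fell and 0 rose with R396Q against empty vector (5 and 1 with the block), and 1 rose and 0 fell with R396Q against wild type (2 rose with the block). Over all clusters 8.99%, 1.23% and 5.75% were called in these comparisons, and 17.4%, 3.0% and 13.1% with the block. Cd68, a lysosomal membrane protein of macrophages, read 9.92, 9.45 and 9.79 with R396Q and 8.92, 8.56 and 8.84 with wild type, against 12.71, 11.10 and 12.14 with empty vector. It fell 4.81-fold with R396Q (limma adjusted p = 0.0492) and 9.25-fold with wild type (limma adjusted p = 0.00363). Ctss and Ctsc, cysteine proteases of the lysosome, fell 17.4-fold and 2.74-fold with wild type (limma adjusted p = 0.0272 each), and Acp5, an acid phosphatase, rose 2.14-fold (limma adjusted p = 0.0361). Lamp2, a membrane protein of lysosomes, was 1.84-fold higher with R396Q than with wild type (limma adjusted p = 0.0196).

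Cd86 read 6.22, 5.25 and 5.57 on the R396Q arrays and 6.46, 5.80 and 5.77 with wild type, against 7.19, 7.60 and 7.72 on the empty vector arrays. All arrays with GATA2 lay below all empty vector arrays, and the 2 GATA2 groups overlapped. It fell 3.53-fold with R396Q (-1.82, SE 0.30, limma adjusted p = 0.0474) and 2.81-fold with wild type (-1.49, SE 0.30, limma adjusted p = 0.0269). The R396Q call was lost with the replicate block (limma adjusted p = 0.0533) and without any 1 of the 9 arrays (0.0508 to 0.152), and over 19 settings the adjusted p was 0.0167 to 0.152. That of wild type was lost when R396Q 3, wild type 2, wild type 3, empty vector 2 or empty vector 3 was dropped (0.0213 to 0.0886 over the left-out arrays). R396Q minus wild type was -0.33 (95% confidence interval -1.04 to 0.39, limma adjusted p = 0.68). Dendritic cells, which carry Cd86, had 6 measured markers with a mean log2 signal of 4.78 to 4.81 with R396Q, 4.86 to 4.90 with wild type and 4.89 to 4.96 with empty vector. Of these, 2 to 3 per array lay below the lower quartile of the array, which was 4.54 to 4.6. With wild type 1 of the 6 rose and 2 fell against empty vector, and with R396Q 1 fell against each of the other groups. Xcr1 and Clec9a, which define conventional dendritic cells of the cross-presenting kind, were at 3.73 to 4.05 on all arrays.

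Of 12 other genes of costimulation, 1 fell with wild type against empty vector (1 rose and 1 fell with the block), and 0 passed in the comparisons of R396Q with empty vector and with wild type (limma, also 0 in both with the replicate block). The counts with wild type against empty vector were near the shares of all clusters called, 8.99%, and 17.4% with the block. Cd28, the receptor of Cd86, fell 1.51-fold with wild type, with means of 5.79 with wild type and 6.38 with empty vector (limma adjusted p = 0.0394). Cd276, another member of the B7 family, averaged 9.52 with R396Q, 9.22 with wild type and 8.25 with empty vector, with differences of 1.27 and 0.97 from empty vector that did not pass (limma adjusted p = 0.0807 with R396Q and 0.0643 with wild type). Cd80, the closest relative of Cd86, averaged 5.56 with R396Q, 5.24 with wild type and 5.72 with empty vector, and its differences of -0.16 and -0.48 from empty vector did not pass (limma adjusted p = 0.848 and 0.26). Of 9 genes of antigen presentation by MHC class II, 0 passed in each of the 3 comparisons without the block, while with the block 1 rose and 1 fell with wild type against empty vector and 1 fell with R396Q against wild type. With the block, 17.4% and 13.1% of all clusters were called in these 2 comparisons. H2-Oa, a chain of the peptide loading modulator H2-O, had the smallest p with wild type, at a difference of 2.33 (SE 0.65, limma adjusted p = 0.0784).

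Phagocytic receptors outside the Fc family fell with wild type in 6 of 18 cases and rose in 0 (8 and 2 with the replicate block). With R396Q, 1 of 18 fell and 0 rose against empty vector (2 fell with the block), and 0 passed against wild type (limma, 2 rose with the block). Mrc1, the mannose receptor, read 6.57, 5.71 and 6.19 with R396Q and 6.70, 5.46 and 6.70 with wild type, against 11.14, 10.24 and 11.33 with empty vector. Like Fcgr1 and Cd86, it was low in both GATA2 groups, 26.9-fold lower with R396Q (limma adjusted p = 0.00707) and 24.6-fold lower with wild type (limma adjusted p = 0.00173). Cd93 and Itgax fell 5.52-fold and 1.42-fold with wild type (limma adjusted p = 0.021 and 0.0285). Itgax averaged 5.29 with wild type and 5.80 with empty vector, below the array medians of 6.06 to 6.19. Of 13 transcription factors of myeloid cells, 5 fell and 1 rose with wild type against empty vector (8 and 1 with the block), 2 fell and 1 rose with R396Q, and 2 rose with R396Q against wild type. Tfec, a factor of the MITF family, read 10.03, 10.21 and 8.95 with R396Q, 7.72, 7.36 and 7.43 with wild type and 12.87, 13.22 and 13.20 with empty vector. Its 3 groups were apart in the same order as those of Sirpa, 10.3-fold below empty vector with R396Q (limma adjusted p = 0.00767) and 48.3-fold below with wild type (limma adjusted p = 0.000291). Klf4, a factor of monocytes, fell 2.90-fold with R396Q (limma adjusted p = 0.0189) and 3.16-fold with wild type (limma adjusted p = 0.00378), whereas Runx1 rose 2.19-fold with R396Q (limma adjusted p = 0.0369) and 2.3-fold with wild type (limma adjusted p = 0.00768).

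**Figure D5:**
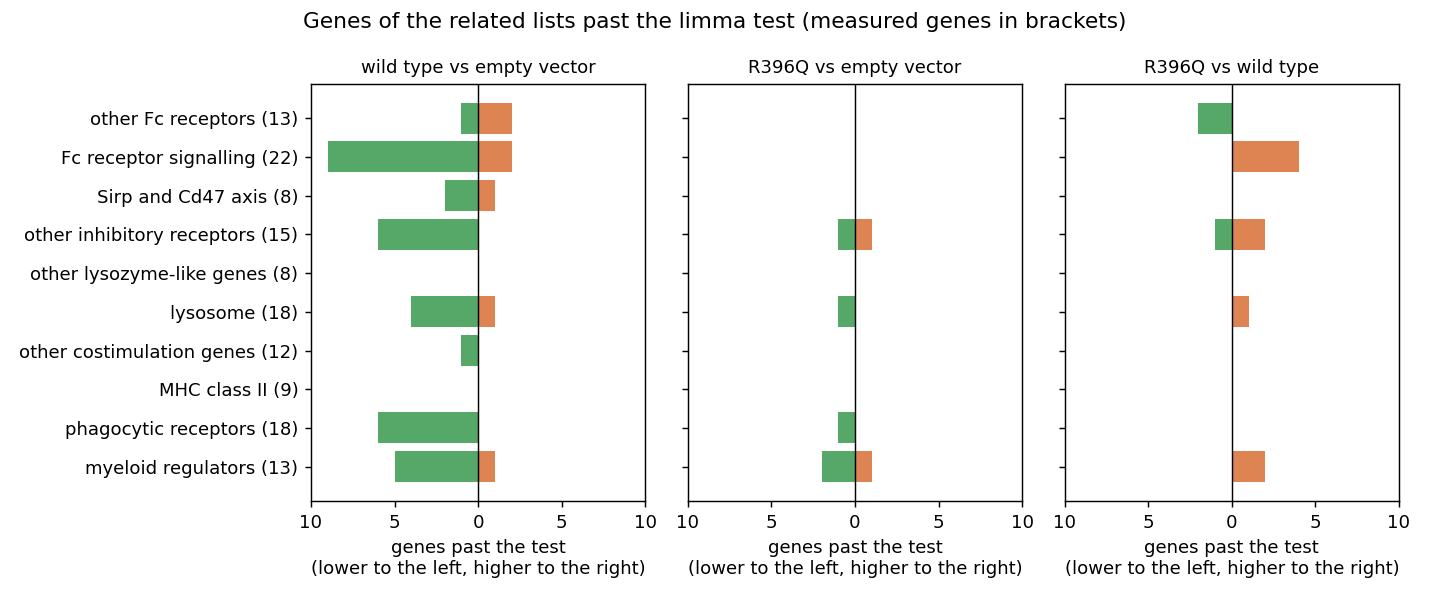
Number of genes past the limma test (x axis, lower to the left and higher to the right of 0) in each of the 10 related lists (y axis, measured genes in brackets) for the 3 comparisons. The Fc receptor signalling genes number 9 lower and 2 higher with wild type against empty vector, 0 with R396Q against empty vector and 4 higher with R396Q against wild type. Of all clusters 8.99%, 1.23% and 5.75% were called in these comparisons.

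The genes whose signal was most like that of each member were found among 3827 symbols with a range of at least 1 on the log2 scale, by Pearson r over the 9 arrays. These correlations run over 3 groups that differ, so they describe these arrays and carry no test. The pattern of Fcgr2b was nearest to Reps1 (r = 0.966), Nkg7, a granule protein of killer cells (0.964), and Pecam1 (0.954). Reps1 averaged 12.53 with R396Q, 11.14 with wild type and 11.44 with empty vector, and Nkg7 14.84, 13.45 and 13.63 in the same order. The 6 natural killer cell markers had a mean log2 signal of 4.62 to 4.94 over the 9 arrays. The pattern of Fcgr3 was nearest to Spns3 (0.975), Rps15-ps2 (0.933) and Il3ra, the alpha chain of the interleukin 3 receptor (0.929). Fcgr1 was most like Rnd1 (0.987), Serpinb8 (0.98) and Ms4a7, a macrophage gene (0.973), which averaged 4.90 with R396Q, 5.05 with wild type and 7.42 with empty vector. Fcgr4 was most like Pycard, the adaptor of inflammasomes (0.973), Gins2, a replication gene (0.96), and Mif (0.957). For Sirpa the nearest were Ggct (0.987), Ptprc, the pan-leukocyte phosphatase CD45 (0.985), and Arhgap31 (0.983), and Ptprc averaged 11.08 with R396Q, 10.30 with wild type and 12.03 with empty vector. After its own copy, Lyz1 was nearest to Shmt2, a mitochondrial enzyme of serine metabolism (0.982), and Timm8a1 (0.98), and Lyz2 to Prkci (0.989) and Pik3ap1, an adaptor for PI3 kinase (0.985). Pik3ap1 averaged 9.36 with R396Q, 6.88 with wild type and 9.71 with empty vector. Cd86 was nearest to the repressor gene Bcl6 (0.97), Kmo, an enzyme of tryptophan breakdown (0.947), and Eps8 (0.943).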

How the data were processed

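Per the submitters' processing notes and the series' design text, the authors summarised probe signals with RMA (robust multiarray average) in Expression Console of Affymetrix, whose version is not given in the sources read. The deposited values are log2 signals, 1 per transcript cluster and array. This method subtracts background, makes the arrays' distributions alike and combines probes. Per the labels the arrays were of the Mouse Exon 1.0 ST type, but the identifiers and annotation of the clusters are of a later whole-transcript design. This mismatch was not settled, and which probes make up a cluster was not checked. All 9 sample columns were used as deposited (0 left out). Symbols came from the array annotation, updated by gene identifier (418 changed). Clusters with several symbols were not used for lists, so 204 of 228 list entries were measured.

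All 21072 clusters were fitted with limma 3.58.1 in R 4.3.3 (1 mean per group, 9 arrays, 6 residual and 0.956 prior degrees of freedom), with 2-sided tests and Benjamini-Hochberg adjustment over all clusters. The fit was run on simulated arrays with known changes, placed in clusters of below-median spread and with no effect shared by replicate numbers. This checks the code and not the calls of the members. The members and lists were chosen with earlier results of these data known. Named genes are all members, up to 4 called genes per list and comparison with the smallest p (up to 2 uncalled where fewer than 2 passed), the 3 most alike genes per member, and Gata2. Cd47, Cd80 and Fcer1g are also given as partners of members. Promoters are from RefSeq on GRCm38.p6, and no coordinates were taken from the array annotation.

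The labels' replicate numbers were tested for pairing. Arrays of the same number in different groups had correlated deviations from their group means (r of 0.451 to 0.693 in 9 pairs), and those of different numbers had negative r (-0.537 to -0.0900 in 18 pairs). Deviations cancel out within a group, so the second range is tied to the first and adds no separate support. Because of the correlation within numbers, the replicate number served as a block in an alternative fit. With 3 arrays per group, the number of arrays limits the precision. Other settings were fits on 2 groups, trend and robust options, array weights, median subtraction, quantile normalization, filters on dim or tied clusters, averaging of clusters that share a symbol, and leaving out each array.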

Additional observations from a re-analysis of the deposited data

How the results depend on the processing

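Of the 8 genes, 4 were called for wild type against empty vector, 2 for R396Q against empty vector and 4 for R396Q against wild type. Leaving out 1 array gave 2 to 4, 0 to 2 and 0 to 3, in the same order. On the arrays of the 2 groups alone, R396Q against empty vector had 1 call, Fcgr2b, with Sirpa and Cd86 lost. R396Q against wild type had 2, with Fcgr2b and Sirpa lost, and Lyz1 was lost for wild type against empty vector. In the comparison of R396Q with empty vector there was also 1 call with the replicate block and 1 with array weights, each with Cd86 lost, and array weights ended the Cd86 call with wild type too. Over all clusters the counts were 1894, 259 and 1211, and they were 3667, 632 and 2750 with the replicate block, 1026, 94 and 772 on the 2 groups alone, and 1285 to 1724, 85 to 304 and 650 to 1153 without 1 array. Differences near 0 changed sign without 1 array. For R396Q minus empty vector these were Fcgr4 (-0.82 to 0.71), Lyz1 (-0.79 to 0.33) and Lyz2 (-1.10 to 0.20), and for R396Q minus wild type Fcgr1 (-0.028 to 0.15). The values past 0 were 0.71 and 0.22 for Fcgr4, 0.33 and 0.17 for Lyz1, 0.20 for Lyz2, and for Fcgr1, which changed sign without wild type 2 or 3 or R396Q 1 or 3, the lowest was -0.0276. Of 456 results of single members under other settings, 382 kept their direction and their side of the threshold, 56 lost the call, 9 gained it and 9 changed sign. Among counts in the related lists under other settings, 201 moved by more than 1.5 times or changed to or from 0. Scaling moved the median of all clusters by less than 0.1. The cause of these shifts was not tested.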
